A study of Homo sapiens with 24 samples.

Results

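The Hippo pathway transcripts examined here were those of 10 genes, chosen by name for their roles in the pathway: the kinases LATS1 and LATS2, the coactivators YAP1 and WWTR1 (the gene of TAZ), the transcription factors TEAD1, TEAD2, TEAD3 and TEAD4, and the target genes CCN1 (CYR61) and CCN2 (CTGF). A peak was assigned to a gene when the gene identifiers listed for that peak included the gene's own, which gave 171 of the 228472 m6A peaks in the 6 lists. The Hippo pathway is a kinase cascade that reads cell contact, shape and stiffness. When it is active, LATS1 and LATS2 phosphorylate YAP1 and TAZ, which are then held in the cytoplasm and degraded. When it is inactive, both coactivators enter the nucleus, bind TEAD factors and turn on genes such as CCN1 and CCN2. In the developing pancreas the YAP1 and TEAD module is known for its part in progenitor growth, and it is switched off as endocrine cells form. N6-methyladenosine (m6A) is a methyl mark on adenosine inside RNA, written mostly within the sequence DRACH, near stop codons and in long exons, and ALKBH5 is a demethylase that removes it.

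RNA was fragmented and immunoprecipitated with an antibody to m6A (MeRIP-seq), and each population had 2 IP libraries and 2 input libraries, 24 in all. All cells came from MEL1, a human embryonic stem cell line, in the study's methods its INS GFP/W derivative, a reporter line with GFP at an INS allele, which all 6 populations share. The 4 stages of differentiation were the undifferentiated cells (hPSC), DE (definitive endoderm), PP (pancreatic progenitors) and hILO (islet-like organoids), all made from mRNA with the same antibody. Wild-type PP (WT PP) and PP of an ALKBH5 knockout line (A5-KO PP), made by CRISPR-Cpf1 with guides in the first exon and colony picking, were prepared as a separate set from total RNA with another antibody and another kit. The stage PP and WT PP therefore differed in protocol as well as in batch, and these cannot be told apart. Where a series of 6 values is given below, the order is hPSC, DE, PP, hILO, WT PP, A5-KO PP. The lists held 31, 22, 31, 23, 31 and 33 peaks on the 10 genes. Each list was called on its libraries together and gives pooled read counts, so no value below has a replicate error and no difference between populations could be tested; ± values are counting errors (SE) only. In each list many rows also carry read counts that do not belong to their position, as set out before the enrichment values. Peak numbers and positions below use the coordinates of the rows, while the threshold that admitted a row was applied to the values beside it.

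The labels were checked by the peaks on marker transcripts. Peaks on POU5F1 and NANOG were listed only in hPSC and DE, peaks on PDX1 and NKX6-1 in PP, hILO, WT PP and A5-KO PP, and peaks on INS, GCG and SST only in hILO. SOX17, a marker of definitive endoderm, had 3 peaks in DE, 0 in PP, 3 in WT PP and 2 in the knockout. FOXA2, the other marker of that stage, had 0, 2, 2, 3, 2 and 2 peaks from hPSC to A5-KO PP. It did not separate DE from the later populations. ALKBH5 itself had 4 peaks in WT PP, with 5 in the knockout, and a peak on its transcript does not check a small edit in the first exon.

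The sequences below are GRCh38 genome sequence from 8 of the 13 stretches that carried a peak in all 6 lists. In each stretch the GGACT motif nearest the middle was taken, or else another GGAC motif, or else another DRACH motif. They are shown because Hippo transcripts had a peak there in every population, at a start codon, along coding exons, at stop codons and in 3′ untranslated regions. Capitals mark the 5 letters of the motif, whose central letter is the adenosine that would carry the mark.
LATS2 exon 2, start codon (chr13:21046023-21046043, minus strand): aggaaactGGACTaacaatga
LATS1 exon 4, coding (chr6:149683417-149683437, minus strand): actatcaaGGACCaccaccac
LATS1 exon 5, coding (chr6:149680110-149680130, minus strand): tttgtaatGGACTacattcct
LATS2 exon 8, 3′ untranslated (chr13:20974681-20974701, minus strand): tgaaaacaGGACTcagcatcg
YAP1 exon 9, coding (chr11:102229776-102229796, plus strand): acaaatgtGGACCttggaaca
TEAD1 exon 13, stop codon (chr11:12937208-12937228, plus strand): cttgtaaaGGACTgaacatgg
CCN1 exon 5, 3′ untranslated (chr1:85583133-85583153, plus strand): gggtgatgGGACTcattgtag
CCN2 exon 5, 3′ untranslated (chr6:131949141-131949161, minus strand): tgtttttcTAACTgggggaaa
The LATS2 adenosine lay 7 nt before the start codon, and that of TEAD1 lay 5 nt before the end of the coding sequence. The CCN1 and CCN2 adenosines lay 100 and 112 nt past the stop codon. A motif inside a peak is a candidate position and not a mapped methylated base.

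Of the 10 genes, 8 had a peak in DE and 9 in each other list, and 7 had a peak in all 6 lists. Among 20046 protein-coding genes the share with a peak was, by list, 60.2%, 57.0%, 52.2%, 57.7%, 62.8% and 69.7%, and 37.7% had a peak in all 6. The genes with peaks everywhere were LATS1, LATS2, YAP1, WWTR1, TEAD1, CCN1 and CCN2, and the exceptions were TEAD2, TEAD3 and TEAD4. Whether a transcript can yield a peak depends on its abundance, and the levels of these transcripts were not analysed here. In bulk RNA, fewer cells of a type and less RNA per cell cannot be told apart.

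**Figure D1:**
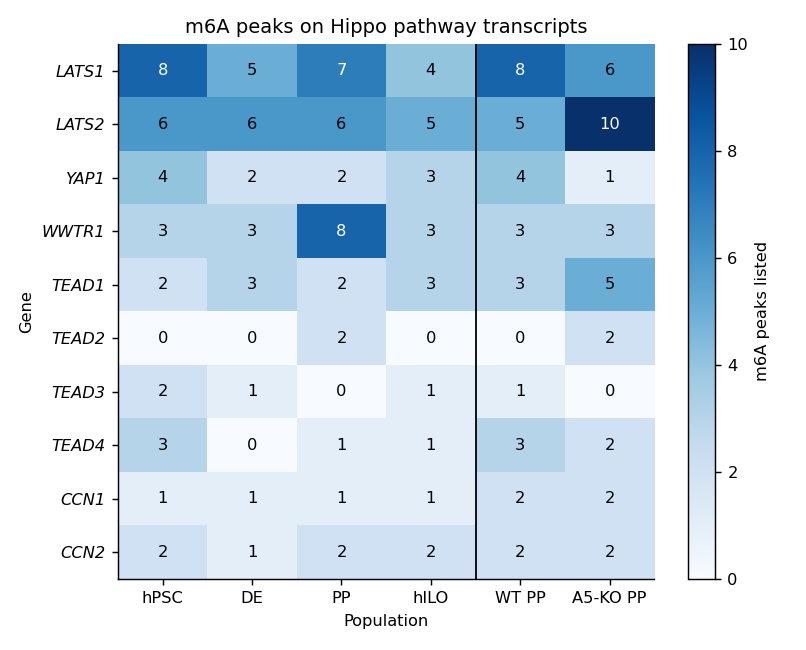
Number of m6A peaks listed on each Hippo pathway transcript (rows) in each population (columns), with the number in each cell and darker blue for more peaks; the vertical line separates the 4 stages from WT PP and A5-KO PP, which were prepared with another protocol. LATS1 and LATS2 had 38 peaks each over the 6 lists, and TEAD2 had 4, 2 in PP and 2 in A5-KO PP.

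Joining overlapping peaks of a gene gave 50 separate loci. A peak was present in all 6 lists at 14 of them, 4 on LATS2, 3 on LATS1, 2 each on WWTR1 and TEAD1, and 1 each on YAP1, CCN1 and CCN2. At 13 of these the 6 lists had bases in common, and at the distal TEAD1 locus they had none. Another 25 loci were in 1 list alone, 8 of them in PP, 8 in WT PP, 6 in A5-KO PP, 2 in hPSC, 1 in hILO and 0 in DE. Loci in all 6 lists and in 1 list were not counted over all genes. Whether these numbers differ from those of other genes is therefore not known. The kinases held 7 of the 14 loci found in every list, and they also had 38 peaks each of the 171 peaks.

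LATS1, the kinase that phosphorylates YAP1 and TAZ, had 8, 5, 7, 4, 8 and 6 peaks in the 6 lists. Its peaks lay along the coding sequence: 81.8% of the 3393 coding nt were covered in at least 1 list and 31.7%, 1075 nt, in all 6. In contrast, 51 nt of its 3576-nt 3′ untranslated region, 1.43%, was covered in any list. The 3 loci shared by all lists were in exon 4, a 1514-nt exon, in exon 5, of 583 nt, and in the coding part of exon 8, the last exon, of 4086 nt. A locus near the start codon, centred at -3368 nt relative to the end of the coding sequence, was listed in hPSC, PP, WT PP and A5-KO PP.

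LATS2, its paralog, had 6, 6, 6, 5, 5 and 10 peaks. Its peaks also lay mostly on coding exons, with 90.8% of 3267 coding nt covered in any list and 818 nt in all 6. A locus shared by all lists ran across exons 4 and 5 of LATS2, of 1424 and 583 nt, and another lay in the coding part of exon 8. LATS2 differed from LATS1 at both ends of the transcript. A peak over its start codon, in exon 2, was in all 6 lists, and a peak centred 196 nt past its stop codon was too, so that 27.3% of its 1834-nt 3′ untranslated region was covered in any list and 9.54% in all 6. In WT PP the middle of LATS2 was listed as 1 peak of 2125 exonic nt, where A5-KO PP had 6 shorter peaks.

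YAP1, the transcriptional coactivator restrained by the LATS kinases, had 4, 2, 2, 3, 4 and 1 peaks. Its peak around the stop codon in exon 9, the last exon, was in all 6 lists, where 475 nt were common to them, 202 coding and 273 past the stop codon. A peak at the start of the 5′ untranslated region was listed in hPSC, DE, hILO and WT PP. The 5 other YAP1 loci were in 1 list each.

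WWTR1, which encodes TAZ, had 3 peaks in each list except PP, which had 8. A peak over the end of the coding sequence and a peak about 1944 nt past the stop codon were in all 6 lists. PP had in addition 5 short peaks of 50 to 100 nt upstream of these, and 4 of them were at loci in no other list. Its remaining peak, of 175 nt, lay further upstream, off the longest coding isoform at its midpoint, and was also listed in hPSC.

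The TEAD factors carry YAP1 and TAZ to DNA. TEAD1 had 2, 3, 2, 3, 3 and 5 peaks. A locus over the stop codon and a distal locus in the 7515-nt 3′ untranslated region, with peaks centred 5152 to 5765 nt past the stop codon, were in all 6 lists. TEAD4 had a peak over its short 3′ untranslated region, 198 nt long, in hPSC, PP, hILO, WT PP and A5-KO PP and none in DE. TEAD3 had 2 peaks in hPSC and 1 each in DE, hILO and WT PP, all in the 3′ untranslated region, and none in PP or A5-KO PP. TEAD2 had 2 peaks in PP, in the coding sequence, and 2 in A5-KO PP, in the 3′ untranslated region, so that no position on it was shared by any pair of lists.

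CCN1 and CCN2 encode secreted matricellular proteins and are the best known readouts of YAP1 activity. Both had a peak that started close to the stop codon in all 6 lists, in the last of 5 exons. The stretch common to the lists was 350 nt on CCN1 and 300 nt on CCN2, and covered 35.7% of the 908-nt CCN1 and 24.2% of the 1088-nt CCN2 3′ untranslated region. CCN2 also had a peak in its 5′ untranslated region in every list except DE, and CCN1 had one in WT PP alone.

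**Figure D2:**
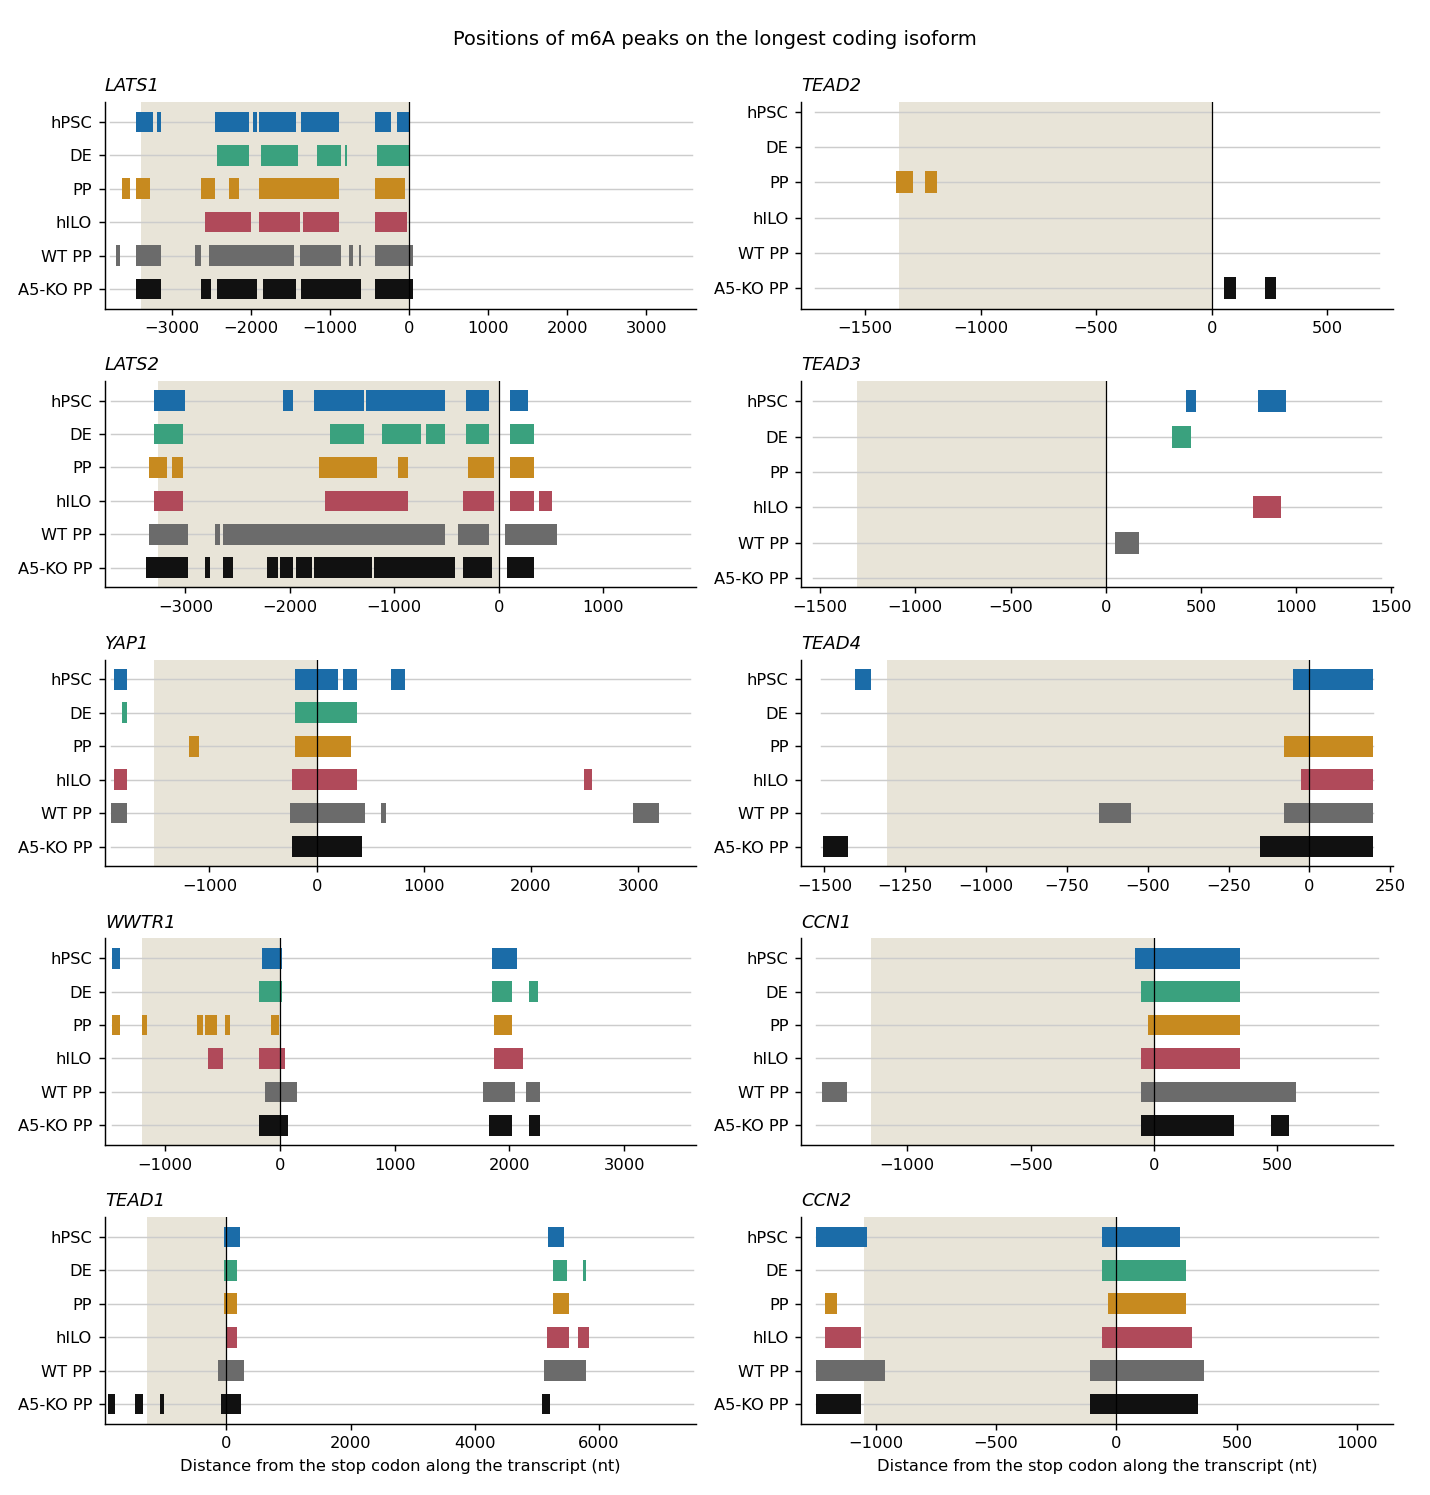
Positions of the m6A peaks on the longest coding isoform of each gene, in nucleotides from the end of the coding sequence (0, black line), with the coding sequence shaded and a row of bars for each population. LATS1 and LATS2 carried peaks along most of the coding sequence, while the loci of YAP1, TEAD1, CCN1 and CCN2 that were in all 6 lists lay over or past the stop codon.

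Over all lists, 164 of the 171 peaks had a midpoint on the longest coding isoform, and 26.2% of them were within 200 nt of the stop codon, against 19.2% over all peaks. The midpoint was in the 5′ untranslated region for 9.15%, in the coding sequence for 50.6% and in the 3′ untranslated region for 40.2%, against 5.92%, 51.3% and 42.8% over all peaks. The shares differed by role. Of 76 kinase peaks, 88.2% (95% Wilson interval 79.0 to 93.6%) were centred in the coding sequence and 9.21% in the 3′ untranslated region. Of 33 TEAD peaks, 78.8% (62.2 to 89.3%) were centred in the 3′ untranslated region, as were 55.6% of 36 coactivator peaks and 68.4% of 19 CCN1 and CCN2 peaks. No CCN1 or CCN2 peak was centred in the coding sequence. Peaks of the same gene recur over the lists, so they are not independent observations and the intervals cover counting error only.

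**Figure D3:**
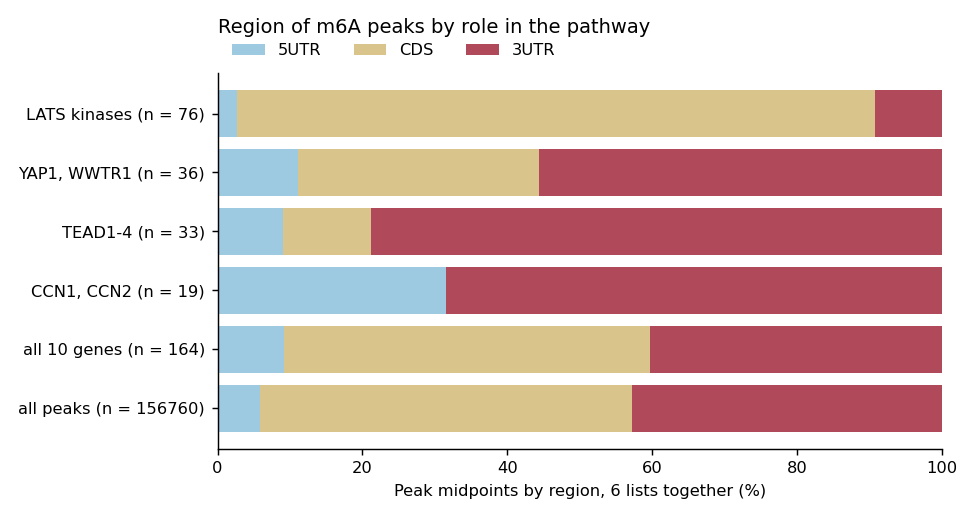
Share of peak midpoints (%) in the 5′ untranslated region (blue), coding sequence (tan) and 3′ untranslated region (red), for each role in the pathway and for all peaks, 6 lists together; n is the number of peaks. Kinase peaks were 88.2% coding, and TEAD peaks 78.8% 3′ untranslated.

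A DRACH site (a letter other than C, a purine, A, C, and a letter other than G, on the transcript strand) was inside 158 of the 171 peaks, 92.4%, against 90.8% of all peaks. The core GGAC was inside 115, 67.3%, against 55.0%, and within the centre of 69 peaks, 40.4%, against 35.9%. The peaks on these genes were longer, with a median of 225 exonic nt against 175 over all peaks, and a longer window holds more sites. The genes differed: GGAC was in 34 of 38 LATS2 peaks and 27 of 38 LATS1 peaks, in 7 of 8 CCN1 peaks and in 0 of 11 CCN2 peaks. The CCN2 stretch shared by all 6 lists held 13 DRACH sites, none of them GGAC.

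Along the differentiation, inheritance of a peak meant that a peak of the stage before covered over 50% of its exonic bases. In DE, 18 of 22 peaks, 81.8% (61.5 to 92.7%), were inherited from hPSC, against 64.7% of all DE peaks. In PP, 17 of 31, 54.8% (37.8 to 70.8%), were inherited, against 57.0%. In hILO, 15 of 23, 65.2% (44.9 to 81.2%), were inherited, against 45.6%. The interval held the share over all peaks in each of the 3 stages under this rule. Under other overlap rules it did not in hILO, where the share was 78.3% (58.1 to 90.3%) against 56.2% with any overlap and 60.9% (40.8 to 77.8%) against 37.1% with reciprocal overlap. Of the 14 PP peaks that were not inherited, 6 were on WWTR1 and 2 on TEAD2.

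Across the protocols, 20 of 31 PP peaks, 64.5%, were covered by WT PP, against 57.9% of all PP peaks. In the other direction 11 of 31 WT PP peaks, 35.5%, were covered by PP, against 22.4%. Between the genotypes, 19 of 31 WT PP peaks, 61.3% (43.8 to 76.3%), were covered by A5-KO PP, against 50.0% of all WT PP peaks. WT PP in turn covered 25 of 33 A5-KO PP peaks, 75.8% (59.0 to 87.2%), against 46.8%, which lies below that interval; neighbouring peaks of a gene are not independent, and no test was run. The A5-KO PP peaks with no WT PP peak included those on TEAD2 and those near the start of TEAD1. The WT PP peaks with no A5-KO PP peak included 3 of the 4 on YAP1 and the peak on TEAD3.

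Values of enrichment need a limit stated first. In each list, the read counts of a row did not always belong to the position in the same row. Longer peaks collect more input reads, and over a stretch of rows the rank correlation of exonic length with input reads was highest with no offset in some stretches and 1 or more rows away in others. Around LATS1, it peaked with no offset in the 4 stages and at an offset of 1 row in WT PP and A5-KO PP. Around LATS2 it peaked with no offset in hPSC and DE, at 1 row in PP and hILO and at 3 rows in WT PP and A5-KO PP. Of the 171 peaks, the counts were in step with the position for 21, 15, 9, 6, 3 and 3 in the 6 lists, the remainder being at a clear offset or not placed. On peaks shared by hPSC and DE, the input reads of in-step rows had a rank correlation of 0.79 between the lists. For shared peaks at an offset it was 0.37 as listed and 0.65 once read at the offset. For WT PP and A5-KO PP the same values were 0.92, 0.40 and 0.69. The offset was found after the data were seen, and its cause was not tested. The enrichments below are those of in-step rows, and counts read at an offset are named as such. Positions do not use the counts, but the thresholds by which a row entered a list did.

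**Figure D4:**
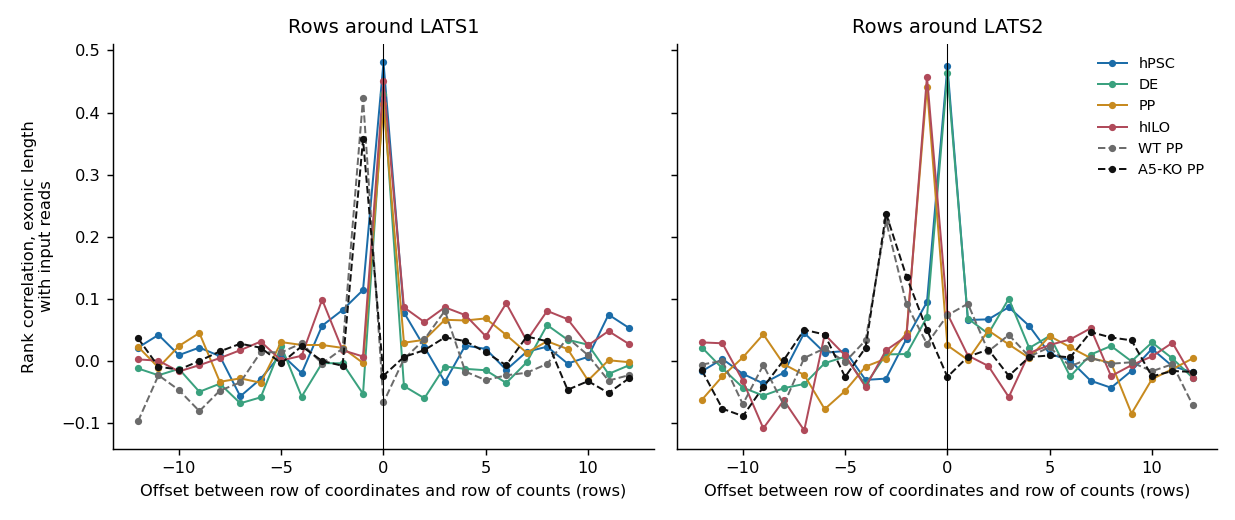
Rank correlation (Spearman) between exonic peak length and input reads, over the rows around LATS1 (left) and LATS2 (right), when the counts are read from a row at the given offset; lines are the 6 lists. The correlation peaked at 0 rows for LATS1 in the 4 stages and at 1 row away in WT PP and A5-KO PP, and for LATS2 at 0, 1 or 3 rows away.

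In the 4 stages the in-step values covered the kinases, YAP1, CCN1 and CCN2. For scale, the median log2 enrichment (IP over input) of all in-step peaks was 1.70, 1.66, 1.48 and 1.43 over the stages from hPSC to hILO. LATS1 was in step throughout. Its peak in exon 5 had a log2 enrichment of 2.53 ± 0.16 in hPSC, then 2.07 ± 0.20 (DE), 2.03 ± 0.14 (PP) and 2.1 ± 0.10 (hILO), highest in hPSC, with the other stages within their counting errors of each other. These rested on 83, 74, 134 and 256 input reads and on 1267, 193, 483 and 821 IP reads. The exon 8 peak was at 2.19 ± 0.20, 2.12 ± 0.16 and 2.48 ± 0.13 from DE to hILO. In hPSC it was split into peaks of 1.85 ± 0.22 and 2.13 ± 0.23. The main exon 4 peak stood at 2.19 ± 0.12, 2.17 ± 0.15, 2.12 ± 0.12 and 2.23 ± 0.09 from hPSC to hILO, with neighbouring stages within their counting errors. All of these were above the median peak of their list, except the value of 1.43 in PP, where the median was 1.48. The flatness of the main exon 4 peak depended on the scaling of the lists, which in the deposited enrichment varied from row to row. On the ratio of the counts of the same rows, with a single scaling per list, hILO was above PP. The difference was 0.47 ± 0.15 for the main exon 4 peak, 0.40 ± 0.17 for exon 5 and 0.70 ± 0.20 for exon 8. Over all pairs the median difference was -0.02.

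LATS2 was in step in hPSC and DE. The peak over its start codon was at 1.82 ± 0.11 in hPSC and 2.24 ± 0.18 in DE, and the peak past its stop codon at 1.87 ± 0.19 and 2.27 ± 0.17. As listed, these were the pairs that were higher in DE. On the count ratio the start codon peak was still higher, by 0.52 ± 0.21, whereas the peak past the stop codon differed by -0.04 ± 0.25. The peak from exon 4 into exon 5 was at 2.32 ± 0.12 in hPSC and 2.02 ± 0.14 in DE, and the peak in exon 8 at 1.94 ± 0.12 and 1.64 ± 0.12. On its row in PP, read at an offset of 1 row, the start codon locus had 2 peaks, with 100 and 56 input reads and 439 and 296 IP reads.

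The YAP1 peak around the stop codon had enrichments of 2.03 ± 0.05 in hPSC and 1.78 ± 0.05 in DE, a difference of -0.25 ± 0.07, on 961 and 1027 input reads. Its IP reads were 10223 and 2327, and the lists do not give the depth of the libraries. Read at an offset of 1 row, the same locus had 1331 input and 4985 IP reads in PP and 2372 and 5929 in hILO. The peak in the 5′ untranslated region was at 1.34 ± 0.12 in hPSC and 1.19 ± 0.15 in DE, below the median of its list in both.

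CCN1 had the highest enrichment of the in-step stage peaks on these genes, 2.68 ± 0.06 in hPSC, and 2.41 ± 0.12 in DE, with 608 and 195 input reads. The CCN2 peak near the stop codon, the one without GGAC, was at 2.02 ± 0.05, 1.75 ± 0.10, 1.80 ± 0.08 and 1.61 ± 0.05 from hPSC to hILO. It was highest in hPSC, above the median of its list in all 4 stages, and was backed by 959, 279, 463 and 1308 input reads. Between PP and hILO its direction turned with the scaling, from -0.19 ± 0.09 as listed to 0.17 ± 0.09 on the count ratio. The CCN2 peak in the 5′ untranslated region was at 1.57 ± 0.19 in hPSC, 1.56 ± 0.46 in PP and 2.50 ± 0.36 in hILO, on 62, 10 and 17 input reads, so the counting errors of the last pair are wide.

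No TEAD row was in step. Read at offsets of 2 to 5 rows, the TEAD4 locus over the 3′ untranslated region had 804 input and 13531 IP reads in hPSC, 152 and 1024 in PP and 139 and 537 in hILO. Over 253 shared peaks at these offsets in PP and hILO, input reads had a rank correlation of 0.45 between the lists. For the count ratios of those peaks it was 0.24, so these TEAD4 counts are less secure. At the distal TEAD1 locus the counts were 65 and 612 in hPSC, 405 and 843 in DE and 312 and 1200 in PP. TEAD2 and TEAD3 rows were out of the gene order of their lists and were not placed, so no counts are given for them.

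**Figure D5:**
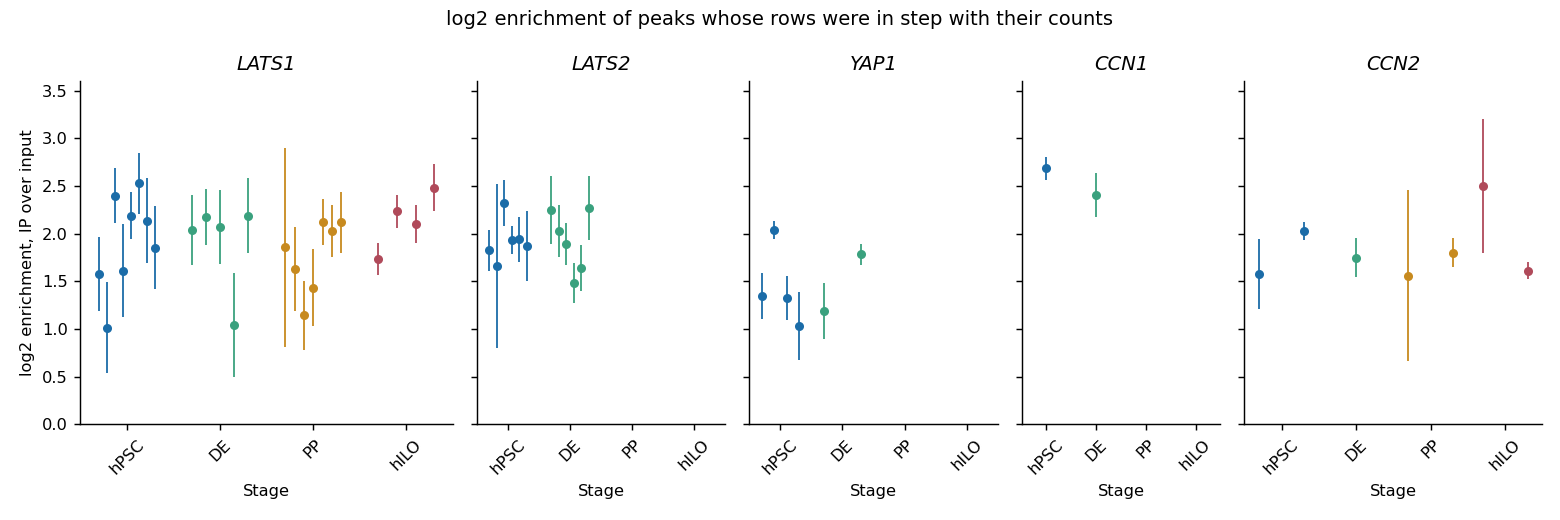
log2 enrichment of IP over input for each in-step peak of 5 Hippo transcripts by stage; points are peaks, ordered from 5′ to 3′ within a stage, and bars are 95% counting intervals with no replicate error. Empty stages had no in-step row; LATS1 exon 5 went from 2.53 in hPSC to 2.07 in DE, and CCN1 from 2.68 to 2.41.

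Taking the 13 shared peaks that were in step in both lists, log2 enrichment was lower in DE than in hPSC for 11 and higher for 2, with a median difference of -0.28. Over all 7802 such peaks it was lower for 66.9%, with a median of -0.12. On the count ratio, read also at the local offset, 3 of 14 pairs were higher in DE, with a median of -0.26, against 41.2% of all 13117 pairs and a median of -0.08. The lists were scaled separately, so a shift common to all peaks cannot be told apart from scaling. Between DE and PP, 5 pairs were in step, with a median of -0.05 against -0.21 over all in-step pairs. Between PP and hILO there were 4, with a median of 0.09 against -0.01. On the count ratio at the local offset the medians were -0.20 over 15 pairs, against -0.04 over all, and 0.17 over 9 pairs, against -0.02. From DE to PP the median therefore lay above that of all peaks in the first reading and below it in the second.

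For the comparison of WT PP with A5-KO PP, 25 pairs were shared. As listed, 10 were higher by 1 or more on the log2 scale in A5-KO PP and 4 lower by 1 or more, against 38.1% and 28.9% of all 25353 shared pairs, with a median difference of -0.03 against 0.24. Among the 13 pairs whose input reads numbered 50 or more in each list, 1 was higher and 1 lower by that much, against 22.8% and 21.4% of all 9067 such pairs, and the median was -0.28 against 0.0038. With a single scaling per list and no offset, 12 were higher and 2 lower by that much, against 42.0% and 21.1% of all pairs, and the median was 0.97 against 0.60. Of the 25 pairs, 3 were in step in both lists. Read at the local offset, with a single scaling per list, 21 pairs remained: 13 were higher in A5-KO PP, against 64.3% of all such pairs, the median difference was 0.23 against 0.34 for all 9088 pairs, 4 were higher by 1 or more and 3 lower by 1 or more, against 28.0% and 13.3%. With at least 50 input reads in each list, 19 of these pairs remained, with a median of 0.14 against 0.25 for all 5639 such pairs. Then 2 were higher by 1 or more and 3 lower by 1 or more, against 15.8% and 8.39%. No test was run on any of these readings. Of the 21 pairs, 6 set different A5-KO PP peaks against the same long WT PP peak of LATS2.

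At the offset of 1 row, the CCN2 peak near the stop codon had 2029 input and 16469 IP reads in WT PP and 1646 and 12021 in A5-KO PP, a scaled difference of 0.33 ± 0.05. The CCN2 peak in the 5′ untranslated region differed by 0.29 ± 0.06. At an offset of 3 rows CCN1 differed by 0.14 ± 0.07, on 1530 and 993 input reads, and a short A5-KO PP peak of 75 nt set against the same WT PP peak differed by -1.81 ± 0.21. The 9 LATS2 pairs, also at an offset of 3 rows, ranged from -1.11 to 1.57. The LATS1 exon 8 peak had 239 input and 1967 IP reads in WT PP and 37 and 1125 in A5-KO PP, a difference of 2.35 ± 0.26, whereas the 4 other LATS1 pairs lay between -0.23 and 0.27. That value rests on the 37 input reads of 1 row.

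WWTR1 was the gene with in-step rows in this pair of lists. The correlation that placed these rows reached 0.17 for WT PP, 0.24 for A5-KO PP, near the minimum of 0.15. Its peak about 1944 nt past the stop codon was enriched by 3.57 ± 0.10 (log2) in WT PP, and by 3.35 ± 0.10 in the knockout, a difference of -0.21 ± 0.15. On the count ratio used above the direction was the opposite, 0.28 ± 0.15. The more distal peak was at 3.37 ± 0.18 and 2.53 ± 0.18, lower in A5-KO PP by a difference of -0.84 ± 0.25, or -0.66 ± 0.25 on the count ratio. The peak over the end of the coding sequence was at 2.56 ± 0.14 in WT PP, on 209 input reads, and at 6.55 ± 0.42 in A5-KO PP, on 12 input reads. Over all in-step peaks the medians of WT PP and A5-KO PP were 3.20 and 3.66, so the values of these lists are on another scale from those of the 4 stages.

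The other genes of the pathway were taken from a list of 27. Of these, 23, 23, 22, 23, 26 and 26 had a peak in the 6 lists, and 20 had one in all 6 lists, against 37.7% of protein-coding genes. The core kinases and scaffolds, which activate LATS1 and LATS2, had a peak in all 6 lists for 8 of 10, and the membrane and junction regulators, which sense contact, for 11 of 13. The target genes in the list had one in all 6 lists for 0 of 3. The transcripts with the most peaks over the 6 lists were DCHS1, a giant cadherin, with 75, WWC2 with 45, the kinase TAOK3 with 41 and FAT4, the cadherin that binds DCHS1, with 40. FAT4 had 2, 0, 0, 1, 18 and 19 peaks, high in both lists of the total RNA protocol and low in the 4 stages. AXL, a receptor kinase and a target of YAP1, had no peak in any list.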

How the data were processed

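Per the labels and methods, the authors used fastp for trimming and HISAT2 for alignment (GRCh38), and called peaks per population with exomePeak2 on IP and input libraries together. The deposited lists give exonic blocks, pooled IP and input counts, log2 enrichment (corrected for GC) and p-values; adjusted p was at most 0.05 and IP/input at least 1.5. The methods of the study give p below 1e-05, which 54.1 to 94.3% of the peaks of a list met, so the lists are wider than that threshold. Depth per library is unknown. Unused per-sample columns: 0. The 10 genes and all lists were chosen with earlier results of these data known. Named were all 10 members, every locus in all 6 lists, of 27 other genes those without peaks and the 4 with most, and the most enriched locus per gene with at least 50 input reads, here from in-step rows only.

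Peaks were placed on the longest coding isoform (GENCODE 44). For each stretch of 400 rows to each side, Spearman correlations of exonic length with input counts at offsets up to 40 rows were computed. An offset had to reach a correlation of at least 0.15 and 0.05 above the next. Neighbouring stretches on both sides, in steps of 50 rows, had to give the same offset by these limits. A row was placed if it was also in gene order, within 60 ranks of the rows around it. The method was tested on simulated lists with every row in gene order and reads in proportion to length. In the deposited lists 90.7 to 93.7% of rows were in gene order, so the simulation was an easier case. Count ratios used a prior count of 0.5. Python 3.11.15, numpy 2.4.6, pandas 2.3.3, scipy 1.17.1 and pysam 0.24.0 were used. No test between populations was run.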

Additional observations from a re-analysis of the deposited data

How the results depend on the processing

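Of 66 alternative values for 23 results, 11 moved by more than 1.5 times (counts), the 95% interval (shares) or the 95% counting interval of a typical pair (medians), and 55 stayed within those wide limits. Requiring IP/input of at least 3 left 14 of 22 peaks in DE, 16 of 31 in PP and 15 of 23 in hILO, and requiring p below 1e-05 left 20 of 31 in PP and 14 of 31 in WT PP; the latter is the threshold in the methods of the study. Genes with a peak fell from 9 to 6 in PP and hILO at IP/input of at least 3, and from 9 to 6 in WT PP at p below 1e-05. Both thresholds act on counts that are partly out of step with positions. The share of peaks with GGAC was 40.4% when the centre of the peak alone was searched and 67.3% in the whole peak. From WT PP to A5-KO PP the median difference was 0.97 with a constant scaling per list (0.60 over all pairs) and -0.03 as listed (0.24 over all pairs), and between -0.28 and 0.23 under the others. From PP to hILO it was -0.09 as listed and 0.17 at the local offset. Peaks higher by 1 or more in A5-KO PP numbered 10 as listed, 1 with at least 50 input reads and 4 at the local offset (chosen after seeing the data). Those lower by 1 or more numbered 4 as listed, 1 with at least 50 input reads and 2 with a constant scaling. The filters leave fewer peaks by construction; for the other changes the cause was not tested. No paired analysis was possible because every value is pooled over libraries and no column names a replicate. For the same reason no replicate could be left out in turn.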

Other observations

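The agreement of input reads between lists differed with the offset at which counts were read. For WT PP and A5-KO PP, 659 shared peaks at an offset of 1 row in both lists had a rank correlation of 0.58 as listed and 0.91 at the offset, and 1078 shared peaks at 3 rows had 0.31 and 0.57. For hPSC and DE, 680 shared peaks at 2 rows in both had 0.40 and 0.69. Counts read 3 or more rows away agreed less well between lists than those in step. The LATS2 and CCN1 counts of WT PP and A5-KO PP are of that kind. So are the TEAD1 and TEAD4 counts of PP and the TEAD4 counts of hILO. Over the whole lists, the share of peaks in step was 38.9% (hPSC), 36.8% (DE), 14.0% (PP), 10.6% (hILO), 8.72% (WT PP) and 7.87% (A5-KO PP).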
